A study of Mus musculus with 8 samples.

Results

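Integrin and laminin chains were followed as a gene family across 4 populations of sorted mouse mammary gland cells. Members were all genes whose platform symbol named an integrin alpha or beta chain or a laminin alpha, beta or gamma chain, without integrin-binding proteins. The rule gave 33 of the 16593 genes on the array, 25 integrin and 8 laminin chains. The symbols Itgbl1 and Itgb2l belong to integrin-beta-like genes and were kept because the rule holds them.

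With 2 arrays each, the 4 groups held AxlLacZ/LacZ FDG-high cells, AxlLacZ/LacZ FDG-low cells, Axl+/LacZ FDG-high cells and Axl+/LacZ FDG-low cells. All mice were nulliparous, 16 weeks old and of the B6.129P2-Axl tm1Dgen strain, in which lacZ sits in the Axl gene, which encodes a receptor tyrosine kinase. AxlLacZ/LacZ mice carry the insertion on both alleles and Axl+/LacZ mice on 1, so every group carries lacZ and no group is wild type. Cells were separated by the fluorescence that FDG, a substrate of the lacZ product beta-galactosidase, gives in them. FDG-high cells were the top 5% and FDG-low cells the bottom 65% of single viable cells, after removal of cells stained for CD45, CD31 or CD11b. Each sample pooled glands of several mice of 1 genotype. Whether the 2 samples of a group were separate pools is not stated in the labels, and the p-values below therefore reflect sample-to-sample spread that may be technical.

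Integrins are receptors made of an alpha and a beta chain, and laminins are trimers of an alpha, a beta and a gamma chain. Laminins are deposited in the basement membrane, the sheet of matrix on which epithelium rests. In the mammary gland the basal cells touch that sheet, and Itga6, the CD49f antigen, is widely used with other markers to sort basal from luminal cells. The epithelial chains here were Itga2, Itga3, Itga6, Itgb4, Itgb6 and Lamb3. The stromal chains were Itga1, Itga5, Itga7, Itga11, Lama2 and Lama4, known from fibroblasts, mural cells or muscle. Another class held 9 chains of leukocytes and platelets, and 12 chains had no fixed class.

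Levels are log2 intensities after background correction and quantile normalization, and each gene is represented by its brightest probe. Differences were tested with limma across all genes, with Benjamini-Hochberg adjustment and a threshold of 0.05, and errors of differences are standard errors of that fit. Rose, fell and called are said below only of genes that passed this threshold. Per array, 48.1 to 55.5% of probes exceeded a background level that lay between 6.09 and 6.20. Axl had levels of 6.07 and 6.40 in AxlLacZ/LacZ FDG-high cells and 6.24 and 6.40 in AxlLacZ/LacZ FDG-low cells, against 8.89 and 9.13 in Axl+/LacZ FDG-high cells and 8.45 and 7.98 in Axl+/LacZ FDG-low cells. All AxlLacZ/LacZ arrays were therefore below all Axl+/LacZ arrays, as the genotype labels have it, and near background. Where the Axl probe lies relative to the insertion was not examined. Among the antigens used to remove cells, Ptprc (CD45) and Itgam (CD11b, itself a member) were below background on all 8 arrays, and Pecam1 (CD31) was above it on all 8, between 6.28 and 7.33.

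Of the 33 members, 28 exceeded background on at least 1 array and 19 on all 8, and all 33 entered the tests. Itga7, a muscle laminin receptor chain, and the leukocyte chains Itgad, Itgam, Itgax and Itgb2l exceeded it on none. Lama4 and Itgae did so on 1 array, and Itga4 and Itgb2, the beta chain of leukocyte integrins, on 2. All 7 leukocyte markers measured, Ptprc included, were below background on all arrays. Itga1, a collagen receptor chain of smooth muscle and fibroblasts, exceeded background on 6 arrays but stayed between 5.98 and 6.5. The stromal class thus rested mainly on Itga5, Itga11 and Lama2, and the 5 chains below background throughout, which include Itga7, were not well above background in any group.

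**Figure D1:**
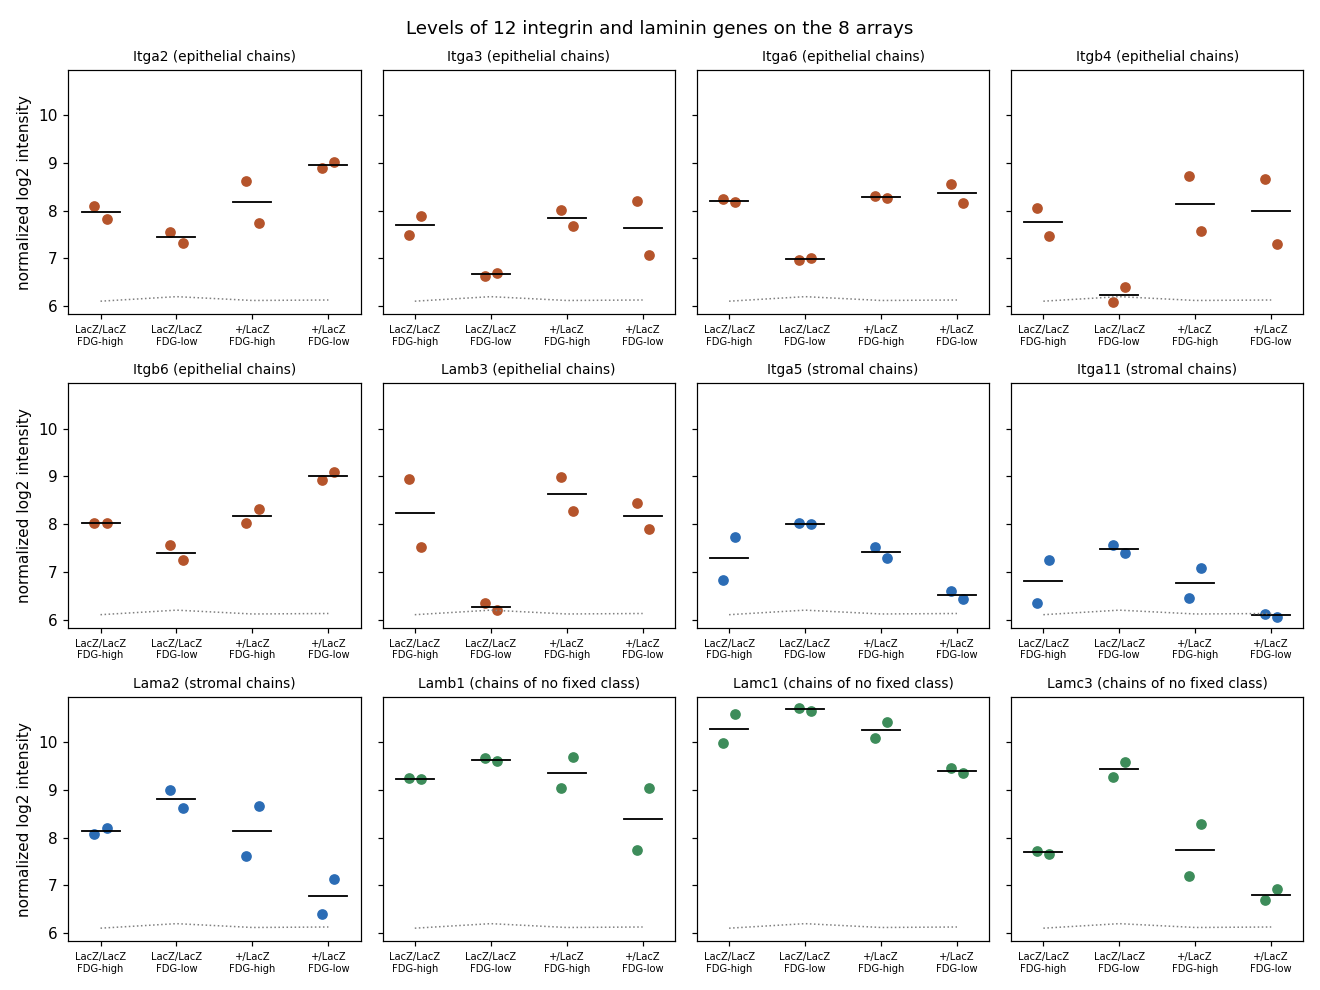
Normalized log2 intensity of 12 integrin and laminin genes, one panel per gene, with a point per array, a bar at the mean of the 2 arrays of a group and a dotted line at the mean background level of the group. Epithelial chains are lowest in AxlLacZ/LacZ FDG-low cells, where Itgb4 and Lamb3 lie near background, whereas Itga5, Itga11, Lama2, Lamc1 and Lamc3 are highest there and lowest in Axl+/LacZ FDG-low cells.

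The genotypes were first compared in FDG-low cells. All 6 epithelial chains were lower and 5 of 6 stromal chains higher in AxlLacZ/LacZ than in Axl+/LacZ cells. Over all members 17 were higher and 16 lower. Past the test, Itgb6, Itga6, Itgb8 and Itga2 fell and 4 members rose (Lamc3, Lamc1, Itga5 and Lama2). Of these, Itgb8, Lamc1 and Lamc3 had no fixed class. The 8 make up 24.2% of the members, where 8.41% of all genes passed. In single directions 3.78% of all genes were called higher and 4.63% lower. The arrays of the 2 genotypes did not overlap for 22 members, or 66.7%, against 50.4% of all genes, and 16 had an unadjusted p under 0.05, as did 22.4% of all genes. Without either AxlLacZ/LacZ FDG-low array Itgb6 was the 1 member that passed, and without the first Axl+/LacZ FDG-low array 3 passed, while the calls over all genes dropped to 122, 151 and 545. In these bulk samples fewer cells of a type and less RNA per cell cannot be told apart.

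Itga6 pairs with Itgb4 or Itgb1 to form receptors for laminin. Its levels were 6.96 and 7.0 in AxlLacZ/LacZ FDG-low cells, against 8.56 and 8.17 in Axl+/LacZ FDG-low cells. The AxlLacZ/LacZ pair differed by less than 0.05 and lay well below both Axl+/LacZ arrays, and the log2 difference was -1.39 ± 0.14 (adjusted p = 0.00583). Itgb4, the beta chain of the hemidesmosome, had levels of 6.08 and 6.41 in AxlLacZ/LacZ FDG-low cells, against 8.66 and 7.31 in Axl+/LacZ FDG-low cells. One of the low values was not above background, and the Axl+/LacZ arrays stood far apart, so the difference of -1.74 ± 0.53 did not pass (adjusted p = 0.11). Itgb4 had another probe on the array, which differed by -1.16 in the same direction.

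Itgb6 and Itgb8 are beta chains that pair with Itgav, and the receptors they form bind and activate latent TGF-beta. Itgb6 had levels of 7.57 and 7.24 in AxlLacZ/LacZ FDG-low cells, against 8.92 and 9.10 in Axl+/LacZ FDG-low cells. It fell by 1.60 ± 0.15 on the log2 scale, a 3.04-fold lower level (adjusted p = 0.00554). Itgb8 had levels of 6.59 and 6.71 in AxlLacZ/LacZ FDG-low cells, against 8.11 and 8.21 in Axl+/LacZ FDG-low cells. Both genotypes gave tight, separate pairs, and Itgb8 fell by 1.51 ± 0.17 (adjusted p = 0.00829). Itgav, their shared alpha chain, had levels of 8.64 and 8.44 in AxlLacZ/LacZ FDG-low cells, against 9.24 and 9.09 in Axl+/LacZ FDG-low cells. Its pairs did not overlap either, but the difference of -0.63 ± 0.16 did not pass (adjusted p = 0.063). For Itgb6, the other probes were dimmer, above background on 4 and 7 arrays, and differed by -0.25 and -0.42.

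Itga2, the alpha chain of a collagen receptor that is also found on platelets, had levels of 7.56 and 7.33 in AxlLacZ/LacZ FDG-low cells, against 8.89 and 9.03 in Axl+/LacZ FDG-low cells. All 4 values were above background and the groups were separate, with a log2 difference of -1.51 ± 0.28 (adjusted p = 0.0266). Itga3, a laminin receptor chain that pairs with Itgb1, differed by -0.97 ± 0.35 without passing (adjusted p = 0.166). Lamb3, the beta chain of the anchoring laminin of skin and mammary epithelium, had levels of 6.35 and 6.20 in AxlLacZ/LacZ FDG-low cells, against 8.45 and 7.89 in Axl+/LacZ FDG-low cells. It had the largest negative difference of the members, -1.90 ± 0.48, and the test was not passed (adjusted p = 0.0665). All 6 epithelial chains were lower, 3 of them past the test, with a median difference of -1.56, where the median of all genes was 0.

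Pan-epithelial markers moved the same way. Of 9 measured, among them Cdh1, Krt7, Krt8, Krt18 and Esrp1, 8 fell and Cdh1, at -0.21, did not pass. Their mean level per array was 7.69 and 7.78 in AxlLacZ/LacZ FDG-low cells, against 9.78 and 9.87 in Axl+/LacZ FDG-low cells, and none was below background on all arrays. All 9 luminal markers were lower, 4 of them past the test. Of 8 basal markers 7 were lower, Acta2 alone past the test, and Cnn1 was higher at 0.43. Over all genes 4.63% were called lower. The mean level of the basal markers was 8.12 and 8.22 in AxlLacZ/LacZ FDG-low cells, against 9.52 and 8.75 in Axl+/LacZ FDG-low cells. The part of cell composition in the lower epithelial chains was not tested.

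Among the laminins, Lamc3, a gamma chain of narrower distribution than Lamc1, had levels of 9.28 and 9.59 in AxlLacZ/LacZ FDG-low cells, against 6.69 and 6.92 in Axl+/LacZ FDG-low cells. This was the largest difference of any member, 2.63 ± 0.33 or 6.18-fold (adjusted p = 0.0102). A dimmer probe of Lamc3, above background on 3 arrays, differed by 0.81. Lamc1, the gamma chain of most laminins, had levels of 10.72 and 10.65 in AxlLacZ/LacZ FDG-low cells, against 9.45 and 9.36 in Axl+/LacZ FDG-low cells. The 2 pairs were tight and Lamc1 rose by 1.27 ± 0.21 (adjusted p = 0.0208). Lama2, the alpha chain of muscle and nerve basement membranes, had levels of 9.0 and 8.62 in AxlLacZ/LacZ FDG-low cells, against 6.40 and 7.14 in Axl+/LacZ FDG-low cells. It rose by 2.04 ± 0.39, or 4.10-fold (adjusted p = 0.0293).

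The beta chains Lamb1 and Lamb2, which complete trimers with Lamc1, had higher levels in AxlLacZ/LacZ FDG-low cells without passing. Lamb2 had levels of 9.78 and 9.61 in AxlLacZ/LacZ FDG-low cells, against 7.95 and 8.41 in Axl+/LacZ FDG-low cells, and its difference of 1.52 ± 0.35 lay just outside the threshold (adjusted p = 0.0505). Lamb1 had levels of 9.67 and 9.60 in AxlLacZ/LacZ FDG-low cells, against 7.74 and 9.04 in Axl+/LacZ FDG-low cells. The second Axl+/LacZ array came much nearer to the AxlLacZ/LacZ pair than the first, and the difference was 1.25 ± 0.41 (adjusted p = 0.133). Lama1, an alpha chain of embryonic basement membranes, differed by -0.11 ± 0.41, with AxlLacZ/LacZ values of 6.57 and 6.73 between the Axl+/LacZ values of 7.38 and 6.15.

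Itga5 forms the main fibronectin receptor with Itgb1. Its levels were 8.02 and 8.0 in AxlLacZ/LacZ FDG-low cells, against 6.61 and 6.43 in Axl+/LacZ FDG-low cells, and it rose by 1.49 ± 0.28 (adjusted p = 0.0276). Another Itga5 probe, above background on all 8 arrays, differed by 0.90. Itga11, the alpha chain of a collagen receptor of fibroblasts, had levels of 7.57 and 7.39 in AxlLacZ/LacZ FDG-low cells, against 6.12 and 6.06 in Axl+/LacZ FDG-low cells. Both Axl+/LacZ values were below background and only bound that group, although another Itga11 probe exceeded background on 1 of these arrays, at 6.15. The groups were separate and the difference of 1.39 ± 0.32 did not pass (adjusted p = 0.052). The other Itga11 probes, above background on 3 and 7 arrays, differed by 0.56 and 0.63. Itgbl1, a secreted protein with integrin-like repeats, differed by 2.13 ± 0.60 (adjusted p = 0.0878). Of the 6 stromal chains 5 were higher, 2 of them past the test, and the median difference was 0.79, with a range of 0.48 to 1.44 over the alternatives and the highest value with only chains above background. The other 3 were Itga1, Itga7 and Lama4, all at or near background, with differences of 0.18, -0.04 and 0.06.

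Fibroblast markers moved with these chains. All 10 measured were higher in AxlLacZ/LacZ FDG-low cells, 4 of them past the test (Col6a1, Dcn, Lum and Fbln2), where 3.78% of all genes were called higher. Their mean level was 10.35 and 10.29 in AxlLacZ/LacZ FDG-low cells, against 7.64 and 9.15 in Axl+/LacZ FDG-low cells, and all 10 were above background on every array. Of 7 pericyte markers 6 were higher and Pdgfrb alone passed. Of 4 skeletal muscle markers Tnnt3, a troponin of fast muscle, rose, and the other 3 were below background on all arrays. Tnnt3 had levels of 6.82 and 7.27 in AxlLacZ/LacZ FDG-low cells, against 5.83 and 5.82 in Axl+/LacZ FDG-low cells, where it was below background. Hbb-bt, a globin gene of red cells, rose as well. The part of cell composition in the higher laminin and stromal chains was not tested.

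**Figure D2:**
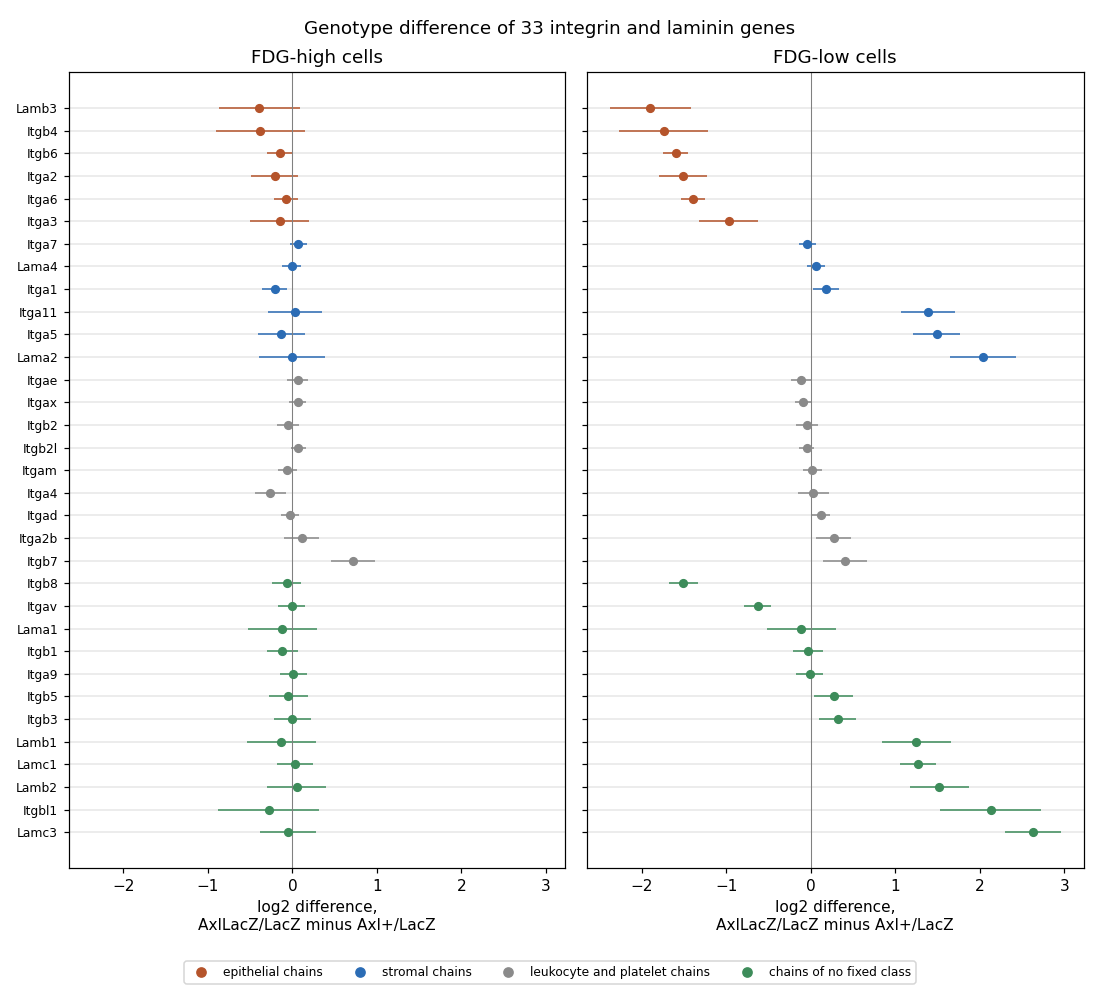
Log2 difference between AxlLacZ/LacZ and Axl+/LacZ cells for all 33 members, in FDG-high cells on the left and FDG-low cells on the right, with points coloured by class and bars of 1 standard error of the fit. Differences in FDG-high cells lie between -0.39 and 0.72, whereas those in FDG-low cells run from -1.90 for Lamb3 to 2.63 for Lamc3.

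The promoters of the called members are shown because sets of members rose and fell together in FDG-low cells. The RefSeq promoter set used, on GRCm38.p6, held 22 of the 33 members and 5 of the 8 called in FDG-low cells. The called genes Itga6, Lamc1 and Lamc3 were not in that set. The 250 bases before the annotated start of each gene are given from 5′ to 3′ on the gene's own strand. All 5 genes lie on the minus strand. The windows are chr2:60722604-60722853 for Itgb6, chr12:119238277-119238526 for Itgb8, chr13:114932101-114932350 for Itga2, chr15:103366792-103367041 for Itga5 and chr10:27616943-27617192 for Lama2, all directly upstream of the first exon. Capitals mark motif matches on either strand. The AP-1 motif was searched as TGANTCA. GC boxes were searched as GGGCGG and TATA boxes as TATAAA. The E-box of ZEB and SNAI factors was searched as CAGGTG. The first 3 fell and the last 2 rose in AxlLacZ/LacZ FDG-low cells.
Itgb6: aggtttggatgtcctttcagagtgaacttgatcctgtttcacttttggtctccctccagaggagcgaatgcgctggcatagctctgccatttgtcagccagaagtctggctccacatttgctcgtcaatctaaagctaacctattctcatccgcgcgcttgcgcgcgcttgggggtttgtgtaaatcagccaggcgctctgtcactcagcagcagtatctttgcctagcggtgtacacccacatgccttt
Itgb8: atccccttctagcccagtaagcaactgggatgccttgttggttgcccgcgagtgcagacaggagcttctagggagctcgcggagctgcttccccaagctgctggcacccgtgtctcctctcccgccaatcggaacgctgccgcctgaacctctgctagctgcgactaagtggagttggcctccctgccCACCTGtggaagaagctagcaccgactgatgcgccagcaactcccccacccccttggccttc
Itga2: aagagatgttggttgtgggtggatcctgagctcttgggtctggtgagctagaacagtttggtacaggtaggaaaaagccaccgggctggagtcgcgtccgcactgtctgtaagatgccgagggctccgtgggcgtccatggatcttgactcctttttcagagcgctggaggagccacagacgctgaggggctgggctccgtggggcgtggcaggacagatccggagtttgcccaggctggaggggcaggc
Itga5: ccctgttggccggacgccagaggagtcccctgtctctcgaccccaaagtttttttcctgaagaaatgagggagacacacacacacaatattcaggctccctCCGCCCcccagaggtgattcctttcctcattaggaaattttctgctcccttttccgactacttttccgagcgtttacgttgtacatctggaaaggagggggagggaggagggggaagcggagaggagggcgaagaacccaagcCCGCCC
Lama2: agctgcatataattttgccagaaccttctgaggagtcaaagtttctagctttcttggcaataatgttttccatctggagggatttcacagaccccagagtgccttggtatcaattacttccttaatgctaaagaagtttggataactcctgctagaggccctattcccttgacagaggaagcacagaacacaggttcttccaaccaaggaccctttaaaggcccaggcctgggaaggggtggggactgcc
Itgb8 held 1 E-box and Itga5 2 GC boxes, and the other 3 windows held none of the 4 motifs. Of 32851 mouse promoter windows of this length, 6.75% held the AP-1 motif, 32.7% the GC box, 12.4% the TATA box and 17.2% the E-box. GC content was 52% for Itgb6, 62.4% for Itgb8 and 60.8% for Itga2, against 55.6% for Itga5 and 47.2% for Lama2. These matches describe the letters of the windows only.

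Genes of the matrix around the receptors were counted in FDG-low cells as well. Of 12 other basement membrane genes and non-integrin laminin receptors, 7 were higher and 5 lower. Past the test, 5 rose and 2 fell, where 3.78% of all genes were called higher and 4.63% lower. Those that rose were the nidogens Nid1 and Nid2, which link laminin to collagen IV, the collagen IV chains Col4a1 and Col4a2, and perlecan, Hspg2. Hspg2 had levels of 11 and 11.13 in AxlLacZ/LacZ FDG-low cells, against 9.54 and 9.24 in Axl+/LacZ FDG-low cells, a difference of 1.67 ± 0.19 (adjusted p = 0.00851). Col4a2 rose by 1.95 ± 0.25 (adjusted p = 0.0111). The 2 that fell were Sdc4, a heparan sulfate proteoglycan of adhesion sites, and Col4a6, a collagen IV chain of a few epithelia and smooth muscle. Col4a6 had levels of 5.96 and 6.09 in AxlLacZ/LacZ FDG-low cells, both below background, against 6.97 and 6.90 in Axl+/LacZ FDG-low cells, at least 1.67-fold lower in AxlLacZ/LacZ cells. As the values of a dim group only bound it, that fold sets the Axl+/LacZ mean against the background floor.

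Among 12 of 15 listed integrin ligands that were measured, 10 were higher and 2 lower. Past the test, 4 rose (Tnc, Vcam1, Postn and Ecm1) and Ccn2 fell, where 3.78% of all genes were called higher and 4.63% lower. Tgfbi, with the largest difference at 2.25, did not pass. Tnc, tenascin C, had levels of 9.28 and 9.14 in AxlLacZ/LacZ FDG-low cells, against 7.48 and 7.60 in Axl+/LacZ FDG-low cells, a difference of 1.67 ± 0.11 (adjusted p = 0.00255). Vcam1, the ligand of the Itga4 and Itgb1 pair, rose by 1.28 ± 0.11 (adjusted p = 0.00416). Inside the cell, 16 of 22 listed activation and focal adhesion genes were measured, of which Fermt2 rose and Actn1 fell. Of all genes 8.41% were called in either direction. Fermt2, kindlin-2, which binds beta chain tails, had levels of 9.70 and 9.78 in AxlLacZ/LacZ FDG-low cells, against 8.27 and 8.44 in Axl+/LacZ FDG-low cells (difference 1.38 ± 0.10, adjusted p = 0.00296). The actin crosslinker Actn1 fell by 2.16 ± 0.31 (adjusted p = 0.0143). None of 6 hemidesmosome and tetraspanin genes passed, the nearest being Cd151, the tetraspanin partner of laminin-binding integrins, at -0.91 ± 0.27 (adjusted p = 0.0973), and none of 3 integrin-binding proteins did.

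Within AxlLacZ/LacZ glands, FDG-high cells were then set against FDG-low cells. Itga6 was the only member to pass, or 3.03% of members, where 0.392% of all genes passed. Its levels were 8.24 and 8.18 in FDG-high cells, against 6.96 and 7.0 in FDG-low cells, and it rose by 1.23 ± 0.14 or 2.35-fold (adjusted p = 0.035). The call was kept in 2 of the 8 fits that left out 1 array. All 6 epithelial chains were higher in FDG-high cells, with a median difference of 1.13, and 5 of 6 stromal chains were lower, with a median of -0.48, where the median of all genes was -0.01. Without the first FDG-high array the stromal median was -0.25. The arrays of the 2 gates did not overlap for 23 members, or 69.7%, against 44.6% of all genes, and 11 members had an unadjusted p under 0.05, as did 12.9% of all genes.

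Lamb3 had levels of 8.95 and 7.53 in AxlLacZ/LacZ FDG-high cells, against 6.35 and 6.20 in AxlLacZ/LacZ FDG-low cells. The gates were apart, but the FDG-high arrays differed widely and the difference of 1.96 ± 0.48 did not pass (adjusted p = 0.164). Itgb4 had levels of 8.05 and 7.48 in FDG-high cells, against 6.08 and 6.41 in FDG-low cells, with a difference of 1.52 ± 0.53 (adjusted p = 0.302). The TGF-beta activating chains were closer between gates, at 0.61 ± 0.15 for Itgb6 (adjusted p = 0.167) and 0.63 ± 0.17 for Itgb8 (adjusted p = 0.203). A dimmer Itgb6 probe differed by -0.04, of opposite sign, and another by 0.28.

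The largest negative difference in AxlLacZ/LacZ glands was that of Lamc3, with levels of 7.73 and 7.65 in FDG-high cells, against 9.28 and 9.59 in FDG-low cells. The pairs were far apart, and the difference of -1.75 ± 0.33 did not pass (adjusted p = 0.101). A dimmer Lamc3 probe differed by -0.77. Itga5 differed by -0.72 ± 0.28 (adjusted p = 0.343) and Itga11 by -0.68 ± 0.32 (adjusted p = 0.452). Another probe of Itga5 differed by -0.44, and the other probes of Itga11 by -0.43 and -0.13. Of the partner lists only Col4a6 passed in this comparison, at least 1.57-fold higher in FDG-high cells (adjusted p = 0.0491). Of all genes 0.392% passed. Beside Itga6, the pan-epithelial markers Krt7 and Esrp1 and the basal marker Acta2 rose, and the red cell marker Hbb-bt fell by 2.04 ± 0.20 (adjusted p = 0.0247). Red cell markers averaged 5.92 and 6.11 in FDG-high cells, against 7.49 and 7.44 in FDG-low cells. Basal markers averaged 10.03 and 9.56 in FDG-high cells, against 8.12 and 8.22 in FDG-low cells, and pan-epithelial markers 9.22 and 8.72 in FDG-high cells, against 7.69 and 7.78 in FDG-low cells. Their part in the Itga6 difference was not tested. Fibroblast markers averaged 9.92 and 10.20 in FDG-high cells, against 10.35 and 10.29 in FDG-low cells. Of these 10 markers 7 were lower and 3 higher in FDG-high cells, with a median difference of -0.33 and none past the test. This comparison and the genotype comparison in FDG-low cells share the AxlLacZ/LacZ FDG-low arrays.

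**Figure D3:**
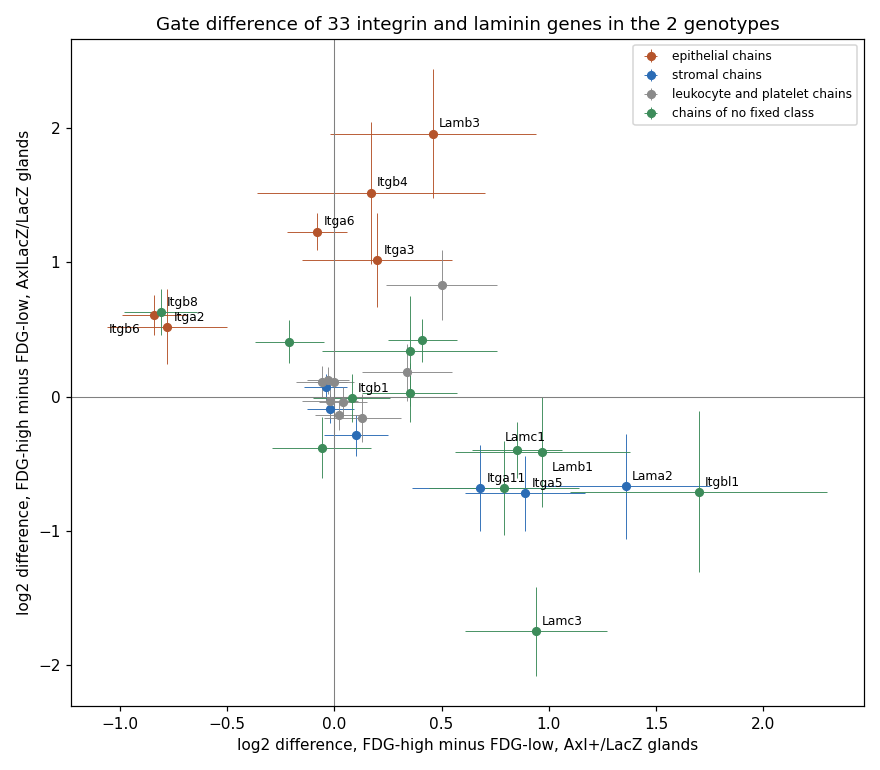
Log2 difference between FDG-high and FDG-low cells for all 33 members, in AxlLacZ/LacZ glands on the y axis and Axl+/LacZ glands on the x axis, with bars of 1 standard error of the fit. Itga6, Itgb4, Itga3 and Lamb3 lie above 1 on the y axis and between -0.08 and 0.46 on the x axis, Itgb6, Itgb8 and Itga2 lie at upper left, and Lama2, Lamc1, Lamc3, Itga5, Itga11 and Itgbl1 at lower right.

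In Axl+/LacZ glands no member passed between FDG-high and FDG-low cells, and 1 gene of all, or 0.00603%, did. At an unadjusted p of 0.05 there were 9 members, where 10.3% of all genes reached that value, and arrays did not overlap for 15 members, or 45.5%, against 39% of all genes. The 6 epithelial chains had a median difference of 0.05, with 3 higher and 3 lower in FDG-high cells, and the stromal chains one of 0.39. Leaving out 1 array took the epithelial median to between -0.43 and 0.43, and with only chains above background the stromal median was 0.79. Within the epithelial class the arrays of the gates overlapped for Itga6 and Itgb4 but not for Itgb6 and Itga2. Itga6 had levels of 8.31 and 8.26 in FDG-high cells, against 8.56 and 8.17 in FDG-low cells, with the FDG-high pair inside the FDG-low one (difference -0.08 ± 0.14). Itgb4 had levels of 8.72 and 7.58 in FDG-high cells, against 8.66 and 7.31 in FDG-low cells, a difference of 0.17. The other Itgb4 probe had 8.18 and 8.07 in FDG-high cells, against 7.68 and 7.0 in FDG-low cells. Its gates did not overlap and differed by 0.79, so the overlap of Itgb4 depended on the probe.

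Itgb6, in contrast, had levels of 8.03 and 8.32 in Axl+/LacZ FDG-high cells, against 8.92 and 9.10 in Axl+/LacZ FDG-low cells, a difference of -0.84 ± 0.15 (adjusted p = 0.164). The dimmer Itgb6 probes differed by -0.20 and -0.36. Itgb8 had levels of 7.26 and 7.44 in FDG-high cells, against 8.11 and 8.21 in FDG-low cells, and differed by -0.81 ± 0.17 (adjusted p = 0.206). Itga2 differed by -0.78 ± 0.28 (adjusted p = 0.394). For all 3 genes the FDG-low arrays were the highest of the 8 arrays. Pan-epithelial markers averaged 8.82 and 9.01 in FDG-high cells, against 9.78 and 9.87 in FDG-low cells, luminal markers 7.48 and 7.81 in FDG-high cells, against 8.27 and 8.52 in FDG-low cells, and basal markers 10.10 and 9.71 in FDG-high cells, against 9.52 and 8.75 in FDG-low cells. Their part in these differences was not tested.

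Among the laminins of Axl+/LacZ glands, Lamc1 had levels of 10.09 and 10.42 in FDG-high cells, against 9.45 and 9.36 in FDG-low cells (difference 0.85 ± 0.21, adjusted p = 0.251). Lama2 had levels of 7.61 and 8.66 in FDG-high cells, against 6.40 and 7.14 in FDG-low cells (difference 1.36 ± 0.39, adjusted p = 0.302). Itga5 differed by 0.89 ± 0.28 (adjusted p = 0.332). For each of these 3 genes both FDG-high arrays were above both FDG-low arrays. Tnc, the 1 gene of the array that passed, is an integrin ligand with levels of 9.44 and 9.67 in FDG-high cells, against 7.48 and 7.60 in FDG-low cells, and it rose by 2.01 ± 0.11 (adjusted p = 0.0194). All 10 fibroblast markers were higher in FDG-high cells, by a median of 1.91 and with none past the test, and their mean was 9.75 and 10.58 in FDG-high cells, against 7.64 and 9.15 in FDG-low cells.

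The difference between the gate effects of the genotypes was tested as an interaction, the AxlLacZ/LacZ gate difference minus the Axl+/LacZ one. Itga6 passed, with a gate difference of 1.23 in AxlLacZ/LacZ glands, against -0.08 in Axl+/LacZ glands, and an interaction of 1.31 ± 0.19 (adjusted p = 0.0495). It was 1 of 33 members, or 3.03%, where 0.814% of all genes passed. An unadjusted p under 0.05 was reached by 12 members and by 14.3% of all genes. Itgb6 came next, with gate differences of 0.61 in AxlLacZ/LacZ glands, against -0.84 in Axl+/LacZ glands, and an interaction of 1.45 ± 0.22 just outside the threshold (adjusted p = 0.0503). Its dimmer probes, above background on 4 and 7 arrays, had smaller interactions of 0.17 and 0.64. The Itga6 call and the Itgb6 miss lay so near the threshold that small changes in processing moved either, and leaving out any 1 array ended the Itga6 call.

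Itgb8 followed with an interaction of 1.44 ± 0.25 (adjusted p = 0.0664). On the negative side, Lamc3 had an interaction of -2.68 ± 0.47 (adjusted p = 0.0701), Itga5 of -1.62 ± 0.39 (adjusted p = 0.132) and Lamc1 of -1.24 ± 0.30 (adjusted p = 0.131). Another probe gave -0.83 for Lamc3 and -1.09 for Itga5. All 6 epithelial chains had a positive interaction, with a median of 1.33, and 5 of 6 stromal chains a negative one, with a median of -0.88, where the median of all genes was 0. The stromal median was -1.49 with only chains above background and -0.52 without background correction. Among the partners, Tnc, Vcam1 and Fermt2 had negative interactions that passed, at -2.25 (adjusted p = 0.00973), -1.23 (adjusted p = 0.034) and -1.40 (adjusted p = 0.0218). Of the pan-epithelial and luminal markers 3 each had a positive interaction past the test, where 0.814% of all genes passed in either direction. The part of these markers in the Itga6 interaction was not tested.

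FDG-high cells of the genotypes are the pair for which the study's design text names a test of its own. No member and no gene passed (0% of all genes), and differences of the members ran from -0.39 for Lamb3 to 0.72 for Itgb7. Axl itself, the gene that carries the insertion, differed by -2.77 ± 0.20 here and did not pass either (adjusted p = 0.0796). At an unadjusted p of 0.05 only Itgb7 remained, where 3.85% of all genes reached that value. Arrays did not overlap for 6 members, or 18.2%, against 30% of all genes. Itga6 had levels of 8.24 and 8.18 in AxlLacZ/LacZ FDG-high cells, against 8.31 and 8.26 in Axl+/LacZ FDG-high cells, a difference of -0.08 ± 0.14. Lama2 had levels of 8.07 and 8.20 in AxlLacZ/LacZ FDG-high cells, inside the Axl+/LacZ values of 7.61 and 8.66, and Lamc3 lay likewise at 7.73 and 7.65 in AxlLacZ/LacZ FDG-high cells, inside the Axl+/LacZ values of 7.20 and 8.28.

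Itgb7, a lymphocyte chain that pairs with Itga4 or Itgae, had levels of 6.83 and 7.43 in AxlLacZ/LacZ FDG-high cells, against 6.25 and 6.56 in Axl+/LacZ FDG-high cells (difference 0.72 ± 0.26). The genotypes did not overlap. Its partner chains Itga4 and Itgae exceeded background on 2 and 1 of the 8 arrays, and the leukocyte markers were below background on all. Itga2b, the platelet chain, had levels of 6.33 and 6.78 in AxlLacZ/LacZ FDG-high cells, against 6.17 and 6.71 in Axl+/LacZ FDG-high cells, which overlapped. Of 4 platelet markers Pf4 and Ppbp were below background on all arrays, whereas Gp9 lay between 8.77 and 9.92. Gp1bb was above background on all 8 arrays but close to it, between 6.14 and 6.57.

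Itgb1, the beta chain shared by most laminin, collagen and fibronectin receptors, differed little between any 2 groups compared. Its levels were 9.88 and 9.93 in AxlLacZ/LacZ FDG-high cells, 9.85 and 9.98 in AxlLacZ/LacZ FDG-low cells, 10.04 and 10 in Axl+/LacZ FDG-high cells and 10.24 and 9.66 in Axl+/LacZ FDG-low cells. The Axl+/LacZ FDG-low arrays held both the highest and the lowest value. Differences were -0.03 ± 0.18 between genotypes in FDG-low cells, -0.01 ± 0.18 between gates in AxlLacZ/LacZ glands, 0.08 ± 0.18 between gates in Axl+/LacZ glands and -0.12 ± 0.18 between genotypes in FDG-high cells. Several of these changed sign with the processing. The alpha chains that pair with it, Itga2, Itga5 and Itga6, had the calls in FDG-low cells described above, in both directions.

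Itga9, a partner of Itgb1 that binds tenascin, had levels of 6.79 and 7.04 in AxlLacZ/LacZ FDG-high cells and 6.40 and 6.58 in AxlLacZ/LacZ FDG-low cells, and 6.88 and 6.93 in Axl+/LacZ FDG-high cells and 6.70 and 6.30 in Axl+/LacZ FDG-low cells. It was higher in FDG-high cells by 0.42 ± 0.16 in AxlLacZ/LacZ glands (adjusted p = 0.348) and by 0.41 ± 0.16 in Axl+/LacZ glands (adjusted p = 0.465). Itgb3 and Itgb5, further partners of Itgav, differed by at most 0.38 in any of the 4 comparisons between groups.

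Averaged over each class, the 6 epithelial chains had a level of 8.14 and 7.82 in AxlLacZ/LacZ FDG-high cells, 6.86 and 6.81 in AxlLacZ/LacZ FDG-low cells, 8.45 and 7.97 in Axl+/LacZ FDG-high cells and 8.61 and 8.10 in Axl+/LacZ FDG-low cells. The 6 stromal chains averaged 6.55 and 6.90 in AxlLacZ/LacZ FDG-high cells, 7.16 and 7.09 in AxlLacZ/LacZ FDG-low cells, 6.64 and 6.89 in Axl+/LacZ FDG-high cells and 6.21 and 6.33 in Axl+/LacZ FDG-low cells. The AxlLacZ/LacZ FDG-low arrays were thus the lowest of the 8 for the epithelial and the highest for the stromal chains, and the Axl+/LacZ FDG-low arrays the lowest for the stromal chains.

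**Figure D4:**
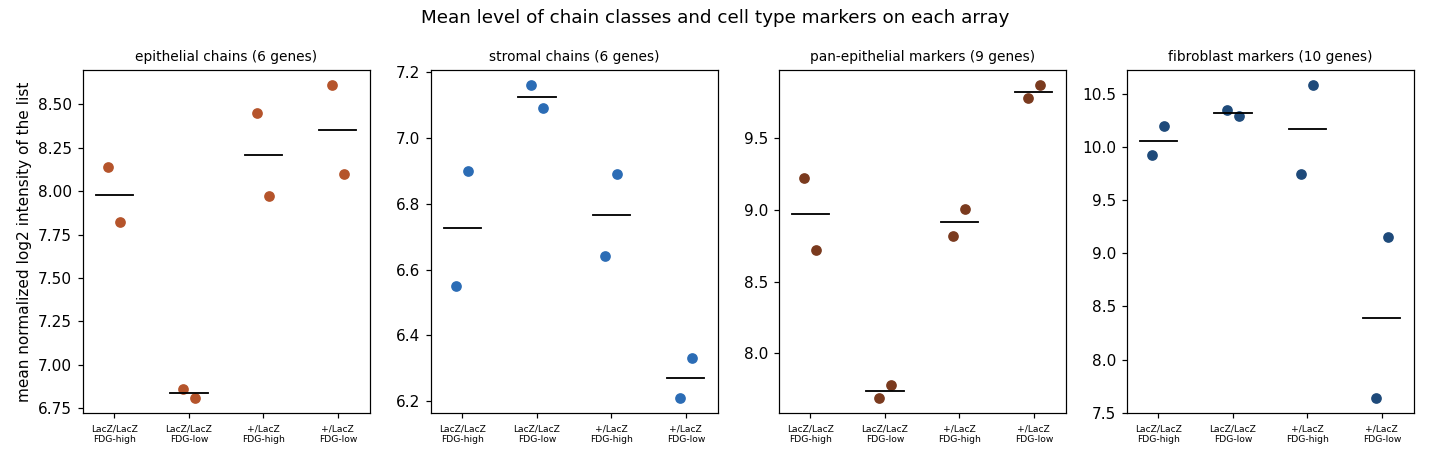
Mean normalized log2 intensity per array of the 6 epithelial chains, the 6 stromal chains, 9 pan-epithelial markers and 10 fibroblast markers, with a bar at the mean of the 2 arrays of a group and a y axis of its own in each panel that does not start at 0. Epithelial chains and pan-epithelial markers are lowest in AxlLacZ/LacZ FDG-low cells, and stromal chains and fibroblast markers are lowest in Axl+/LacZ FDG-low cells.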

How the data were processed

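RNA of 8 sorted cell samples was hybridised to Illumina mouse bead arrays. The deposited values are linear probe intensities for 25697 probes, per the file headers and the values themselves, although the design text speaks of log2 quantile normalized data. How the scanner summarised beads is not stated in the labels or files, and the number of arrays limits the precision. The design text names a MouseWG-6 v2.0 chip, whereas probes were named through the platform table supplied with the values.

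Intensities were background corrected with normexp (offset 50), quantile normalized and log2 transformed with limma 3.58.1 in R 4.3.3, so differences of dim genes are understated. Of the probes, 23978 had 1 gene symbol, 0 several and 1719 none, and 23962 matched a RefSeq gene by identifier. Each of 16593 genes was represented by its brightest probe, and 4777 had a choice of probes. Background was the 95th percentile of 1326 olfactory, vomeronasal and trace amine receptor probes on each array. A gene was counted as above background on an array where any of its probes exceeded that level. A group in which neither array exceeded background gives only a bound, set by its own value or by the lowest signal above background, whichever is higher.

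One limma model with a coefficient for each of the 4 groups (4 residual and 2.4 prior degrees of freedom) gave the gate difference in each genotype, the genotype difference in each gate and their interaction, with two-sided moderated tests adjusted over all genes at 0.05. The fit was tested on simulated data. The rule for full statistics took members passing, the 3 with the largest statistic in each direction in each comparison, and Itga6, Itgb4 and Itgb1. Itgav, Itga3, Lamb3, Lamb1, Lamb2, Itga11 and Itgbl1 between genotypes in FDG-low cells, Itgb8 between gates in AxlLacZ/LacZ glands, and Itga9 between gates, were added after their values were seen. Members and lists were chosen with earlier results of these data known, so no p-value is given over a list. Groups and replicate numbers came from the sample titles. Correlations of replicate differences between groups ran from -0.05 to 0.07 except for 0.40 between the Axl+/LacZ gates. The labels do not say whether samples of the same number share a pool. The main fit therefore left the samples unpaired, also for the Axl+/LacZ gates, where that correlation leaves pairing open. Motifs were searched in RefSeq promoter windows. Alternatives covered background correction, normalization, probe choice, dim genes, the variance model, the samples in the fit, the replicate block and each array left out.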

Additional observations from a re-analysis of the deposited data

Results flagged for a closer look

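Itga6 had gate effects that differed between the genotypes by the test of the difference itself. FDG-high minus FDG-low was 1.23 in AxlLacZ/LacZ glands and -0.08 in Axl+/LacZ glands, an interaction of 1.31 on the log2 scale. The arrays behind it were 8.24 and 8.18 in AxlLacZ/LacZ FDG-high cells and 6.96 and 7.0 in AxlLacZ/LacZ FDG-low cells, and 8.31 and 8.26 in Axl+/LacZ FDG-high cells and 8.56 and 8.17 in Axl+/LacZ FDG-low cells. AxlLacZ/LacZ FDG-low cells therefore stood apart from the other 3 groups. The adjusted p of 0.0495 ranged from 0.0364 to 0.195 over 14 alternatives and passed in 2 of them.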

How the results depend on the processing

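Of 651 values of named members under the alternatives, 571 kept their direction and their side of the threshold, 44 lost a call, 17 gained one and 19 changed sign without a call. In FDG-low cells 8 members and 1396 genes over all passed between genotypes. There were 14 members and 1687 genes among genes above the median brightness, 13 and 1552 when the variance followed intensity, 13 and 1624 with only the compared groups in the fit and 13 and 1497 with the replicate block. Leaving out 1 array gave 1 to 11 members and 122 to 1486 genes, with Itgb6 alone without either AxlLacZ/LacZ FDG-low array and 3 without the first Axl+/LacZ FDG-low array. Itgb6 passed in all 15 alternatives (-1.77 to -0.76), and Itga5 lost its call with median centring. Between gates in AxlLacZ/LacZ glands 1 member and 65 genes passed. There were 2 members and 162 genes among bright genes, 2 and 137 with that variance model, 0 and 40 without background correction, 0 and 0 with the compared groups only, and 0 to 1 and 0 to 138 with an array left out. The Itga6 call there was lost in 8 of 15 alternatives (adjusted p 0.0215 to 0.238). For the interaction 1 member and 135 genes passed. There were 0 members and 81 genes without background correction, 2 and 182 with median centring, 4 and 321 among bright genes, 0 and 117 with the replicate block, and 0 to 3 and 0 to 329 with an array left out. No member passed between gates in Axl+/LacZ glands or between genotypes in FDG-high cells under any alternative. The replicate numbers were not shown to pair the samples, so the block counts describe the fit only.

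Class medians moved in some settings. With only chains above background, the stromal median was 0.79 between gates in Axl+/LacZ glands, 1.44 between genotypes in FDG-low cells and -1.49 for the interaction. Without background correction, the epithelial median was 0.81 between gates in AxlLacZ/LacZ glands and -1.21 between genotypes in FDG-low cells, and the stromal median 0.48 between genotypes in FDG-low cells and -0.52 for the interaction. With the mean of all probes the stromal median in FDG-low cells was 0.52. With an array left out, the epithelial median ran from -0.43 to 0.43 between gates in Axl+/LacZ glands and from -0.48 to 0 between genotypes in FDG-high cells, and the stromal median from -0.48 to -0.25 between gates in AxlLacZ/LacZ glands.

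Sign changes, all of uncalled values, were as follows. Between gates in AxlLacZ/LacZ glands Itgb1 was 0.13 with median centring and 0.01 with the mean of all probes, between genotypes in FDG-low cells it was 0.02 with that mean, and its interaction was 0 with median centring, where Itga6 between genotypes in FDG-high cells was 0.07. With an array left out, values between gates in Axl+/LacZ glands ran from -0.51 to 0.84 for Itgb4, -0.27 to 0.12 for Itga6 and -0.21 to 0.37 for Itgb1, and between gates in AxlLacZ/LacZ glands from -0.08 to 0.05 for Itgb1. Between genotypes in FDG-high cells they ran from -0.15 to 0.38 for Itga2b, -0.28 to 0.34 for Lamc1 and -0.95 to 0.19 for Itgb4. Itgb1 ran from -0.32 to 0.26 between genotypes in FDG-low cells and from -0.38 to 0.20 for the interaction. The cause of these changes was not tested, beyond the fewer genes or arrays in some fits. With 2 arrays per group and dim chains near background, small differences were not detectable.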

Other observations

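In Axl+/LacZ glands some chains differed in the same direction between the 2 arrays of both gates, and others did not. Itga2, for example, had 8.62 and 7.74 on the FDG-high arrays and 8.89 and 9.03 on the FDG-low arrays. Itgb4 had 8.72 on the first and 7.58 on the second FDG-high array, and 8.66 and 7.31 on the FDG-low arrays in that order. Its hemidesmosome partner Col17a1 had 9.35 and 8.61 on the FDG-high arrays and 8.60 and 6.87 on the FDG-low arrays. Lama1, from an embryonic basement membrane laminin, had 7.45 and 6.76 on the FDG-high arrays and 7.38 and 6.15 on the FDG-low arrays. Basal markers averaged 10.10 and 9.71 on the FDG-high arrays and 9.52 and 8.75 on the FDG-low arrays, whereas fibroblast markers averaged 9.75 and 10.58 on the FDG-high arrays and 7.64 and 9.15 on the FDG-low arrays. Over all genes the replicate differences of these gates correlated at 0.40, and those of the AxlLacZ/LacZ gates at 0.01.

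Bcam, a laminin receptor outside the integrin family, stood apart on a single array. It had 7.45 and 8.89 on the AxlLacZ/LacZ FDG-low arrays and 7.25 to 8.04 on the other 6.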
